A study of Homo sapiens with 17 samples.

Results

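DZH_2 and Maraviroc, each given at its IC50 to MDA-MB-231 cells, were compared by how far each moved gene expression from its own solvent. MDA-MB-231 is a breast cancer cell line of mesenchymal type. The comparison used 8 of the series' 17 arrays, 13 of which hold MDA-MB-231 RNA: 2 arrays each of DZH_2 at its IC50, DMSO, Maraviroc at its IC50 and ethanol. The cells had been seeded for 24 h and treated for 48 h, and labelled cRNA was made from 5.5 ug total RNA extracted with Trizol. The question was which genes separate the compounds and which both move alike. The measure is a difference of differences: the log2 signal with DZH_2 minus that in DMSO, less the log2 signal with Maraviroc minus that in ethanol. A positive value means that a gene lay higher with DZH_2 than with Maraviroc, each against its solvent. An IC50 is the concentration that gives 50% inhibition. The labels give neither the concentrations nor the inhibition measured, so the doses are matched by that effect and not by amount. The labels do not say that the replicates were separate cultures, so the p-values rest on a spread between arrays that may be technical only.

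Maraviroc is an approved antiviral drug. DZH_2 is known here by its code name alone. Several gene groups below belong to well studied programmes. Cells copy their DNA in S phase with genes that E2F factors switch on, and divide with a later set of mitotic genes that the transcription factor FOXM1 and the B-MYB and DREAM complexes drive or repress. Cells short of sterol release the SREBP factors, which raise the enzymes of cholesterol and fatty acid synthesis. Cells loaded with misfolded protein, oxidants or damaged organelles raise chaperones, NRF2 targets and autophagy genes.

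The 8 arrays carried the mesenchymal profile of the line in part. VIM, MSN and AXL, mesenchymal genes, had mean log2 signals of 11.80 to 16.90 in the 4 groups. Of 23 mesenchymal genes measured, 4 lay in the range of the negative control probe sets in all 4 groups: CDH2, TWIST1, TWIST2 and FOXC2. SNAI2 and PRRX1 lay in it with Maraviroc, TCF4 with both compounds and SPARC in both solvents. Epithelial markers were mixed: 7 of 19 luminal markers, CDH1, ESR1 and PGR among them, and 8 of 13 basal markers, KRT5 and KRT14 among them, lay in the range of the negative control probe sets in all 4 groups. Another 7 luminal markers, KRT19 and FOXA1 among them, and 4 basal markers, SFN, ITGB4, EGFR and DST, lay above that range in all 4 groups. That range was set at the group's mean 75th percentile of 612 negative control probe sets, 5.76 to 6.44 on the log2 scale. The Maraviroc IC50 replicates differed more than the others: the root mean square standard deviation over genes was 0.546, against 0.338 for DZH_2 IC50, 0.285 for DMSO and 0.327 for ethanol. On the Maraviroc IC50 arrays, 4 hybridization spikes lay 1.03 above ethanol and the negative control median 0.44 above, while the positive control median lay 0.59 below. With DZH_2 these differences from DMSO were 0.56, -0.02 and -0.31. Their part in the results below was not tested. Of 19 chemokine receptor genes measured, 14 lay in the negative control range in all 4 groups and none was called in any comparison, at 4.0% of all genes for the difference.

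Maraviroc moved more genes than DZH_2, and most genes that separated the compounds did so because Maraviroc moved them. The difference was called for 707 of 17687 genes, 4.0%, by limma at an adjusted p under 0.05. Of these, 499 (2.82%) lay higher with DZH_2 and 208 (1.18%) lower. Among the 499, Maraviroc had lowered 469 at the threshold, and among the 208 it had raised 187. Against DMSO, DZH_2 raised 284 genes (1.61%) and lowered 533 (3.01%), 4.62% in all. Against ethanol, Maraviroc raised 815 genes (4.61%) and lowered 1584 (8.96%), 13.6% in all. A change of at least 1 log2 unit in either direction was seen in 1243 genes with DZH_2 and in 4442 with Maraviroc. The smallest difference that was called measured 1.52 log2 units, so smaller gaps between the compounds could not be seen with 2 arrays a group. In 5552 genes (31.4%) the differences over all array pairs did not overlap between the compounds, and all 707 were among these. At an unadjusted p under 0.05, 3109 genes passed for the difference.

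Both compounds called 427 genes, which is 52.3% of DZH_2's calls and 17.8% of Maraviroc's. These comparisons share no array. Of the 427, 423 moved in one direction, 104 up and 319 down, and 4 moved in opposite directions. In 76 of the 423 the difference was called as well, and Maraviroc's change was the larger in 75 of these. The remaining 347 genes (1.96%) are called alike below: 94 rose with both compounds (0.531%) and 253 fell with both (1.43%), with no call for the difference. That wording does not mean equal changes. Maraviroc's change was the larger in 314 of the 347, and the 95% interval of the difference reached a median of 1.10 log2 units to each side. Direction counts depend on scaling: with each array centred on its 4 hybridization spikes, the median change of all genes was -0.53 with DZH_2 and -0.92 with Maraviroc, in place of 0.04 and 0.11. There were then 28 alike rises and 1963 alike falls, and 1050 separating genes higher and 95 lower with DZH_2. With median centring there were 447 separating genes higher and 302 lower.

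**Figure D1:**
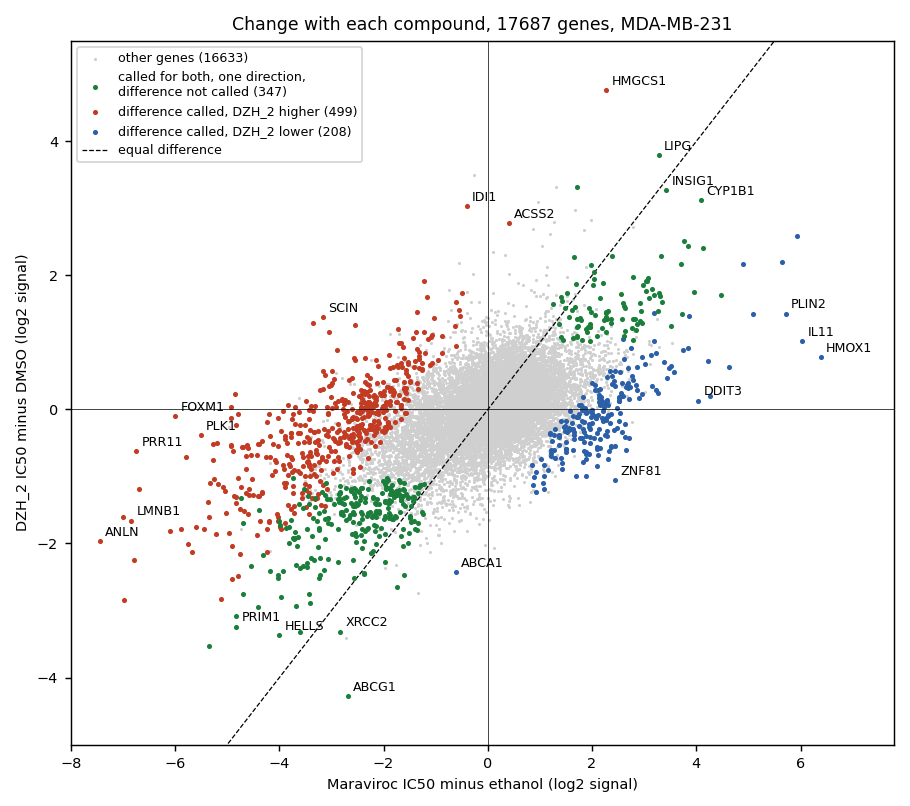
Each point is one of 17687 genes, by its log2 change with Maraviroc IC50 against ethanol (x) and with DZH_2 IC50 against DMSO (y), means of 2 arrays per group. Genes that separated the compounds (499 red, 208 blue) lie left and right of the dashed line of equal change and spread mainly along the Maraviroc axis, while the 347 genes called for both (green) lie at the lower left and upper right.

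The counts depend on single arrays. The number of separating genes was 258 and 171 without DZH_2 IC50 replicate 1 and 2, 108 and 59 without DMSO replicate 1 and 2, and 174 and 201 without ethanol replicate 1 and 2. It was 1901 and 1719 without Maraviroc IC50 replicate 1 and 2, when the more variable group no longer counted towards the spread. Of the 707 genes, 58 kept their call without each of the 8 arrays in turn, 50 higher and 8 lower with DZH_2, and the sign of the difference turned in none. These 58 are the best supported and include FOXM1, PLK1, ANLN, CDK1, CDC20, LMNB1, TMPO, CUX1, IGFBP7, PLIN2, KLHL21 and GABARAPL1.

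Genes of mitosis held the most separating members of the 35 lists: Maraviroc lowered nearly all of them steeply and DZH_2 lowered fewer of them. Of 38 genes of G2/M and mitosis, 26 lay higher with DZH_2 (background 2.82%) and none lower. Maraviroc lowered 37 of the 38 (background 8.96%) and DZH_2 lowered 13 (background 3.01%), by 1.19 (ECT2) to 2.93 (PLK4) log2 units. Their median change was -4.33 log2 units with Maraviroc and -1.02 with DZH_2, against medians of 0.11 and 0.04 over all genes. This list and those below were chosen with earlier results of these arrays known, so their counts are descriptions. Without 1 array the 26 became 17 and 18 without DZH_2 IC50 replicate 1 and 2, 18 and 10 without DMSO replicate 1 and 2, 15 and 18 without ethanol replicate 1 and 2, and 33 and 30 without Maraviroc IC50 replicate 1 and 2. In RNA from whole cultures, fewer cells in a phase of the cycle and less transcript per cell cannot be told apart.

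FOXM1 (Entrez Gene 2305), the transcription factor that drives the mitotic genes, read 11.58 and 10.82 with DZH_2 and 11.61 and 10.99 in DMSO. It read 6.87 and 6.36 with Maraviroc and 12.79 and 12.46 in ethanol. The DZH_2 arrays overlapped with DMSO, and both Maraviroc arrays lay far below every other array. Its change was -0.10 ± 0.33 (SE) with DZH_2 and -6.01 ± 0.34 with Maraviroc, and the difference was 5.91 ± 0.51 (adjusted p = 0.00167). PLK1 (5347), the polo-like kinase of mitotic entry, read 13.90 and 13.28 with DZH_2, 14.35 and 13.59 in DMSO, 10.03 and 8.87 with Maraviroc and 15.11 and 14.81 in ethanol. Here too only Maraviroc stood apart from its solvent, and the difference was 5.12 ± 0.60 (adjusted p = 0.00364). ANLN (54443), the anillin that scaffolds the contractile ring, read 11.56 and 11.35 with DZH_2 against 13.56 and 13.29 in DMSO, and 5.39 and 6.18 with Maraviroc against 13.34 and 13.12 in ethanol. Both compounds lowered it, by 1.97 and 7.45 log2 units, and the difference was 5.48 ± 0.45 (adjusted p = 0.00167). The 3 differences kept their call without any 1 array. ANLN lost the DZH_2 call without DMSO replicate 1 (adjusted p = 0.0543).

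The Maraviroc level of ANLN lay in the negative control range, as did that of 111 of the 499 genes that were higher with DZH_2. For such a gene the size of the fall is uncertain, and the fall to the limit of that range is given as a lower bound. With group means raised to the limit of that range, ANLN fell at least 6.79 log2 units with Maraviroc, NUSAP1 5.29, KIF2C 4.24, TACC3 4.52 and PRR11 5.80. NUSAP1 and TPX2, which bind and build the spindle, fell with both compounds, by 1.82 and 1.78 with DZH_2 and by 6.11 and 5.88 with Maraviroc as measured, with differences of 4.29 (adjusted p = 0.00167) and 4.10 (adjusted p = 0.00283). KIF2C, a kinesin that frees wrongly attached microtubules, fell by 5.28 with Maraviroc. With DZH_2 its change was -0.76 (adjusted p = 0.217), and the difference was 4.51 (adjusted p = 0.00364). TACC3, a spindle protein outside the list, read 9.89 and 8.77 with DZH_2, 10.27 and 9.82 in DMSO, 5.66 and 4.67 with Maraviroc and 10.94 and 10.998 in ethanol. Only its Maraviroc arrays were low, with a difference of 5.09 ± 0.61 (adjusted p = 0.00364). NUSAP1 and TPX2 lost the DZH_2 call without DMSO replicate 1 (adjusted p up to 0.0935).

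PRR11 (55771), a cell cycle gene, had the largest difference of the genes called, at 6.12 ± 0.96 (adjusted p = 0.00976). It read 11.41 and 11.60 with DZH_2, 12.41 and 11.84 in DMSO, 6.78 and 4.23 with Maraviroc and 12.84 and 11.66 in ethanol. The Maraviroc replicates were 2.54 log2 units apart. PRR11 lost the call of the difference without any 1 of DZH_2 IC50 replicate 2, DMSO replicates 1 and 2 and ethanol replicate 1 (adjusted p up to 0.0773). PRR11 lost the Maraviroc call without ethanol replicate 1 (adjusted p = 0.0560).

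**Figure D2:**
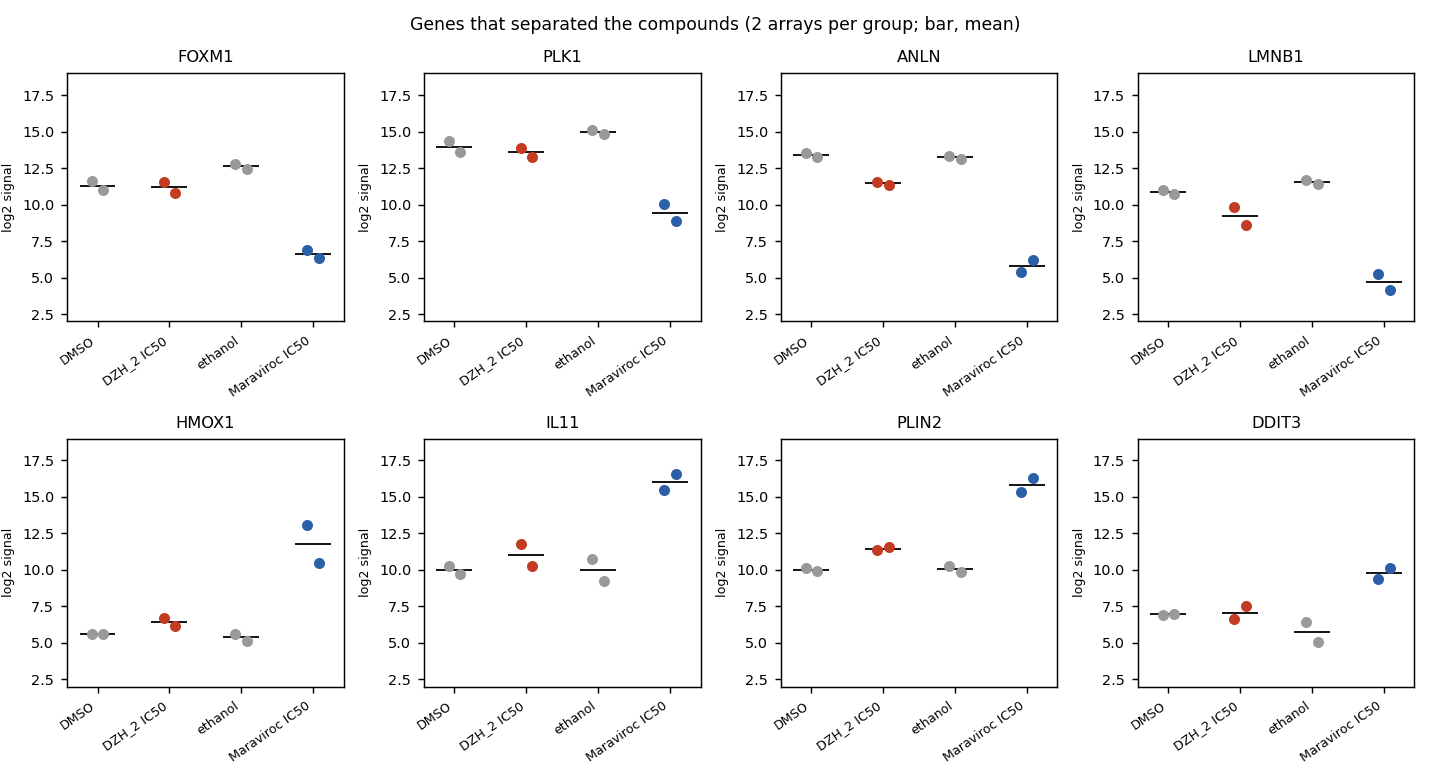
Log2 signal of 8 genes on each array (points, 2 per group) with the group mean (bar). FOXM1, PLK1, ANLN and LMNB1 (top) are low on both Maraviroc IC50 arrays, and HMOX1, IL11, PLIN2 and DDIT3 (bottom) are high on them, while the DZH_2 IC50 arrays stay closer to DMSO.

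The promoters of the mitotic genes carried the elements known for this programme. Promoters are RefSeq windows on GRCh38.p14 from 250 bases before to 50 after the transcription start, and 14250 genes of the array matched one by Entrez Gene ID. The cell cycle homology region, searched as TTTGAA on both strands, was present in 22 of 32 G2/M promoters (68.8%) and in 12.01% of the 14250. The box bound by NF-Y, searched as CCAAT on both strands, was present in 23 of the 32 (71.9%) and in 36.4% of all. Among the promoters of all genes higher with DZH_2, 69 of 418 (16.5%) held TTTGAA. The PRR11 and PLK1 promoters are shown for the 250 bases before the start, with TTTGAA and CCAAT or their reverse complements in capitals, because they show both elements close to the start of a gene that Maraviroc lowered and DZH_2 did not at the threshold. PRR11 lies at chr17:59155496-59155745 (+) and PLK1 at chr16:23678639-23678888 (+).
PRR11: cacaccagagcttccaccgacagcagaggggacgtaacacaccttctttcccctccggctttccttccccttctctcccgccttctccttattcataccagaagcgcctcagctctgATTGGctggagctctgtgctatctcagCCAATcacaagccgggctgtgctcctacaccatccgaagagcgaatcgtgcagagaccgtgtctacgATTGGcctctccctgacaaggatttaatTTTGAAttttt
PLK1: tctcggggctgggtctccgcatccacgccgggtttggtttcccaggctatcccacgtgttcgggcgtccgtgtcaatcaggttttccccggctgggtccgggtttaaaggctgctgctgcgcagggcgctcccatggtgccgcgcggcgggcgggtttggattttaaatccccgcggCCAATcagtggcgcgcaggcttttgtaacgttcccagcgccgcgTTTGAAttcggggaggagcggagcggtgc
In PRR11 the TTTGAA match starts 11 bases before the transcription start, and 3 CCAAT matches start 133, 106 and 39 bases before it. In PLK1 the matches start 29 and 73 bases before the start. A match is a string of letters and says nothing of binding in these cells.

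DNA replication genes fell with both compounds, and 7 of 41 separated them, against 26 of 38 mitotic genes. Of 41 genes of G1/S and DNA replication, Maraviroc lowered 31 (background 8.96%) and DZH_2 lowered 26 (background 3.01%), and 20 were called alike as falls (background 1.43%). The difference was called for 7, all higher with DZH_2 (background 2.82%). The list's median change was -1.79 with DZH_2 and -3.06 with Maraviroc. Leaving out one array changed the 7 to between 0 and 12: no member was called without either DMSO replicate or either ethanol replicate, 1 without DZH_2 IC50 replicate 1, 7 without DZH_2 IC50 replicate 2, and 12 and 8 without Maraviroc IC50 replicate 1 and 2.

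HELLS (3070), a helicase that maintains DNA methylation, read 8.31 and 6.40 with DZH_2 against 10.30 and 11.14 in DMSO, and 7.03 and 5.67 with Maraviroc against 10.13 and 10.58 in ethanol. All 4 treated arrays lay below all 4 solvent arrays. It fell by 3.37 ± 0.53 with DZH_2 (adjusted p = 0.0115) and by 4.005 ± 0.49 with Maraviroc (adjusted p = 0.00502). The difference was 0.64, with a 95% interval of -1.28 to 2.56, which leaves room for an unequal change of over 1 log2 unit. PRIM1, the primase subunit that starts new strands, read 7.20 and 6.24 against 9.96 and 9.96 with DZH_2 and 4.96 and 4.46 against 9.93 and 9.16 with Maraviroc. Its falls were 3.24 and 4.83, with an interval of 0.37 to 2.80 for the difference as measured. Its Maraviroc level lay in the negative control range, and with means raised to the limit of that range the fall with Maraviroc was 3.10 and the difference -0.14. MCM6, a subunit of the replicative helicase, read 6.49 and 6.44 against 9.63 and 9.08 with DZH_2 and 5.88 and 4.46 against 8.94 and 8.21 with Maraviroc. The falls were 2.89 and 3.41, with an interval of -0.90 to 1.93 as measured, and with means raised the fall with Maraviroc was 2.13 and the difference -0.76. The order of the compounds is therefore not settled for PRIM1 or MCM6. Treated and solvent arrays did not overlap for either gene.

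DTL, a substrate adaptor of the ubiquitin ligase that clears CDT1, fell by 3.08 with DZH_2 and 4.83 with Maraviroc, with a difference of 1.76 (adjusted p = 0.0825), or 1.16 with means raised. E2F1, the activating transcription factor of S phase genes, fell by 2.95 and 4.41. PLK4, the kinase of centriole duplication, fell by 2.93 and 3.69 as measured. Both treated levels of PLK4 lay in the negative control range, and with means raised the falls were 2.42 and 1.55, which turned the order of the compounds. The Maraviroc levels of HELLS, PRIM1, MCM6, DTL, E2F1 and PLK4 lay in the negative control range, as did those of 114 of the 253 genes called alike as falls, 24 of which were in that range with DZH_2 as well. The size of their falls with Maraviroc is therefore uncertain. E2F1 lost the DZH_2 call without any 1 of DMSO replicates 1 and 2 (adjusted p up to 0.100). HELLS and MCM6 lost the Maraviroc call without any 1 of ethanol replicates 1 and 2 (adjusted p up to 0.108).

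The members that did separate the compounds were GINS1 and MCM2 of the replicative helicase, TYMS, RRM1 and RRM2 of nucleotide synthesis, the clamp loader subunit RFC3 and the licensing factor CDC6. RRM2 fell by 2.24 with DZH_2 and by 6.79 with Maraviroc (at least 6.09, as its Maraviroc level lay in the negative control range), a difference of 4.55 ± 1.01 (adjusted p = 0.0344). TYMS fell by 5.44 with Maraviroc and changed by -1.79 with DZH_2 (adjusted p = 0.0591), a difference of 3.65 ± 0.71 (adjusted p = 0.0197). RRM1 fell by 2.53 and 4.91, a difference of 2.39 (adjusted p = 0.0220). GINS1, MCM2, TYMS, RRM1, RRM2, RFC3 and CDC6 lost the call of the difference without at least 1 of DZH_2 IC50 replicates 1 and 2, DMSO replicates 1 and 2 and ethanol replicates 1 and 2 (adjusted p up to 0.196). MCM2, RRM2, RFC3 and CDC6 lost the DZH_2 call without at least 1 of DMSO replicates 1 and 2 (adjusted p up to 0.184).

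The letters TTTNNCGC, a form of the E2F site, were present on either strand in 22 of 34 G1/S promoters (64.7%), in 3 of 32 G2/M promoters (9.38%) and in 8.87% of the 14250 promoters. Over all genes called alike as falls they were present in 52 of 212 (24.5%). Over the genes higher with DZH_2 they were present in 60 of 418 (14.4%), and over those lower with DZH_2 in 28 of 177 (15.8%). The promoters of HELLS and MCM6 are shown for the 250 bases before the start, as genes that both compounds lowered, with TTTNNCGC and CCAAT or their reverse complements in capitals. HELLS lies at chr10:94545538-94545787 (+) and MCM6 at chr2:135876444-135876693 (-).
HELLS: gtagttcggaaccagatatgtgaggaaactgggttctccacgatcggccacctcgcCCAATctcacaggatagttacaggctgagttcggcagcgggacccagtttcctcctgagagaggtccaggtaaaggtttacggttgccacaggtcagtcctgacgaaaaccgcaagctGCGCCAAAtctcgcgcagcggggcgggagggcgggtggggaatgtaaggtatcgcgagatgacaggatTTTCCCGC
MCM6: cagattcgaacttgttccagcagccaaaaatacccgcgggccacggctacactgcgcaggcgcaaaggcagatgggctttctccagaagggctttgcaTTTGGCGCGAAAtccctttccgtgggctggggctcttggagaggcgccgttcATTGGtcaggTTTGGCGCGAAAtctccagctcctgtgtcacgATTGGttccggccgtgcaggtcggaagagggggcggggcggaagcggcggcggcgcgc
HELLS holds 2 TTTNNCGC matches, starting 76 and 8 bases before the transcription start. MCM6 holds 4, in overlapping pairs on opposite strands, starting 152, 148, 90 and 86 bases before it. The pairs were counted as separate matches.

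Genes of DNA repair by homologous recombination and crosslink repair fell with both compounds in part. Of 19 measured, DZH_2 lowered 13 (background 3.01%) and Maraviroc 10 (8.96%), and 7 were called alike as falls (1.43%). The difference was called for EXO1 and MCM8, both higher with DZH_2 (background 2.82%). EXO1, an exonuclease that resects DNA ends, fell by 2.01 with DZH_2 and at least 4.39 with Maraviroc (measured difference 3.74, adjusted p = 0.0104, or 2.38 with means raised). MCM8, a helicase of recombination, fell by 2.83 and at least 4.33 (measured difference 2.29, adjusted p = 0.0272, or 1.496 with means raised). MRE11, a nuclease that senses DNA ends, fell by 1.88 with DZH_2. With Maraviroc its change of -0.95 missed the threshold (adjusted p = 0.0868), and its difference was not called (adjusted p = 0.289). EXO1 and MCM8 lost the call of the difference without at least 1 of DZH_2 IC50 replicates 1 and 2, DMSO replicates 1 and 2 and ethanol replicates 1 and 2 (adjusted p up to 0.149). EXO1 and MRE11 lost the DZH_2 call without at least 1 of DMSO replicates 1 and 2 (adjusted p up to 0.134).

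LMNB1 and TMPO, genes of the nuclear lamina, fell steeply with Maraviroc. LMNB1, lamin B1, read 9.81 and 8.58 with DZH_2, 10.99 and 10.73 in DMSO, 5.23 and 4.18 with Maraviroc and 11.71 and 11.38 in ethanol. DZH_2 lowered it by 1.66 and Maraviroc by 6.84, with a difference of 5.18 ± 0.63 (adjusted p = 0.00364). TMPO, which encodes the lamina-associated LAP2 proteins, read 10.96 and 10.54 with DZH_2, 12.29 and 11.58 in DMSO, 5.0001 and 6.30 with Maraviroc and 12.40 and 12.28 in ethanol. Maraviroc lowered it by 6.69, and the difference was 5.50 ± 0.60 (adjusted p = 0.00311). The Maraviroc levels of both lay in the negative control range, which puts their falls at no less than 5.11 and 5.90 and their differences at no less than 3.45 and 4.71. They were the 2 called of 18 genes of the nuclear envelope (background 4.0%), and both kept the call without any 1 array. LMNA, the A-type lamin, fell by 1.23 with Maraviroc and had no called difference (adjusted p = 0.0747). LMNB1 lost the DZH_2 call without any 1 of DZH_2 IC50 replicate 2 and DMSO replicates 1 and 2 (adjusted p up to 0.205). LMNA lost the Maraviroc call without any 1 of ethanol replicates 1 and 2 (adjusted p up to 0.305).

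Replication-dependent histone genes fell with Maraviroc in 23 of 42 cases (background 8.96%) and with DZH_2 in 3 (background 3.01%). The difference was called for 7, all higher with DZH_2 (background 2.82%). H3C2 read 14.03 and 12.59 with DZH_2, 14.22 and 14.16 in DMSO, 10.88 and 10.27 with Maraviroc and 15.42 and 15.01 in ethanol, so that Maraviroc stood below and DZH_2 differed between its replicates. Its difference was 3.75 ± 0.62 (adjusted p = 0.0116). Histone genes share near-identical sequence, so a signal given to one of them may come from its relatives. The count of 7 was 0 without either DMSO replicate or ethanol replicate 1, 1 and 4 without DZH_2 IC50 replicate 1 and 2, 2 without ethanol replicate 2, and 17 and 7 without Maraviroc IC50 replicate 1 and 2. H3C2 lost the call of the difference without any 1 of DMSO replicates 1 and 2 and ethanol replicate 1 (adjusted p up to 0.0791).

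Of 23 mesenchymal genes, Maraviroc lowered 9 (background 8.96%) and DZH_2 3 (background 3.01%), and 3 differences were called, MSN, CAV1 and QKI (background 4.0%). MSN, the moesin that ties actin to the membrane, read 14.48 and 14.92 with DZH_2, 14.94 and 14.92 in DMSO, 12.49 and 11.11 with Maraviroc and 15.40 and 15.21 in ethanol, and its difference was 3.27 ± 0.58 (adjusted p = 0.0145). CAV1, the caveolar coat protein, fell by 1.69 with DZH_2 and by 3.89 with Maraviroc (difference 2.20, adjusted p = 0.0248). QKI, an RNA-binding splicing factor of mesenchymal cells, fell by 2.29 with Maraviroc (difference 2.002, adjusted p = 0.0191). Of 19 luminal markers 3 differences were called and of 13 basal markers 1, SFN, all higher with DZH_2 (background 2.82%). The keratins KRT8, KRT18 and KRT19, which form the filaments of simple epithelia, fell by 2.42, 2.61 and 1.63 with Maraviroc, with differences of 2.40, 2.12 and 2.56 (adjusted p = 0.0108, 0.0181 and 0.0136). SFN, the 14-3-3 sigma protein of epithelial cells, read 11.97 and 12.21 with DZH_2, 11.75 and 11.87 in DMSO, 9.24 and 8.44 with Maraviroc and 12.24 and 11.87 in ethanol. Its difference was 3.50 ± 0.46 (adjusted p = 0.00508) and was called without any 1 array. MSN, CAV1, QKI, KRT8, KRT18 and KRT19 lost the call of the difference without at least 1 of DZH_2 IC50 replicates 1 and 2, DMSO replicates 1 and 2 and ethanol replicates 1 and 2 (adjusted p up to 0.140). CAV1 lost the DZH_2 call without DMSO replicate 1 (adjusted p = 0.0928). MSN, QKI, SFN, KRT8, KRT18 and KRT19 lost the Maraviroc call without at least 1 of ethanol replicates 1 and 2 (adjusted p up to 0.178).

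IGFBP7, CUX1 and ABI3BP were also among the 10 largest positive differences. IGFBP7, a secreted binding protein of insulin-like growth factors, read 15.51 and 15.49 with DZH_2, 15.30 and 15.23 in DMSO, 11.18 and 10.48 with Maraviroc and 15.74 and 15.63 in ethanol. Only Maraviroc moved it, and the difference was 5.09 ± 0.42 (adjusted p = 0.00167). CUX1, a homeodomain transcription factor, read 11.92 and 11.996 with DZH_2, 11.93 and 11.92 in DMSO, 6.94 and 7.99 with Maraviroc and 12.12 and 12.68 in ethanol. Its difference was 4.97 ± 0.52 (adjusted p = 0.00276). ABI3BP, an extracellular matrix protein, read 10.61 and 12.46 with DZH_2, 12.63 and 13.63 in DMSO, 4.12 and 5.25 with Maraviroc and 12.48 and 10.88 in ethanol. Its Maraviroc level lay in the negative control range, which puts the fall at no less than 5.24. The Maraviroc arrays were the lowest, but in all 4 groups the replicates were over 1 log2 unit apart. Its difference of 5.40 ± 0.97 (adjusted p = 0.0149) has a standard error above those of IGFBP7 and CUX1. ABI3BP lost the call of the difference without any 1 of DZH_2 IC50 replicate 2, DMSO replicates 1 and 2 and ethanol replicate 1 (adjusted p up to 0.0957).

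Several stress genes lay on the opposite side: Maraviroc raised them, and DZH_2 raised them less or not at the threshold. HMOX1 (3162), the heme oxygenase that NRF2 and heme induce, read 6.69 and 6.15 with DZH_2, 5.64 and 5.64 in DMSO, 13.06 and 10.50 with Maraviroc and 5.63 and 5.15 in ethanol. The Maraviroc replicates were 2.56 apart and both lay above all other arrays. Maraviroc raised it by 6.39 ± 0.77, at least 6.02 since both solvent groups lay in the negative control range, and the change with DZH_2 was 0.78 ± 0.27 (adjusted p = 0.142). The difference of -5.61 ± 0.90 (adjusted p = 0.0104) was called. Of 22 NRF2 and oxidative stress genes, DZH_2 raised 6 (background 1.61%) and Maraviroc 8 (background 4.61%), and 4 were called alike as rises (background 0.531%). Maraviroc lowered 1 (background 8.96%), NFE2L2, which encodes NRF2 itself, by 1.33. In the list 3 differences were called, all lower with DZH_2 (background 1.18%): HMOX1, SRXN1 and KEAP1. SRXN1, the sulfiredoxin that repairs peroxiredoxins, rose by 3.01 with Maraviroc (difference -2.33, adjusted p = 0.0118), and KEAP1, which holds NRF2 down, by 1.51 (difference -1.85, adjusted p = 0.0270). HMOX1, SRXN1 and KEAP1 lost the call of the difference without at least 1 of DZH_2 IC50 replicates 1 and 2, DMSO replicates 1 and 2 and ethanol replicates 1 and 2 (adjusted p up to 0.132). HMOX1, SRXN1 and KEAP1 lost the Maraviroc call without at least 1 of ethanol replicates 1 and 2 (adjusted p up to 0.211). NQO1, a quinone reductase and classical NRF2 target, behaved otherwise, as described with the genes moved alike.

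PLIN2 (123), the coat protein of lipid droplets, read 11.34 and 11.54 with DZH_2 against 10.13 and 9.90 in DMSO, and 15.32 and 16.28 with Maraviroc against 10.30 and 9.87 in ethanol. Both compounds raised it, by 1.43 and 5.71, and the difference of -4.29 ± 0.49 (adjusted p = 0.00364) was called. GABARAPL1, an autophagosome protein of the ATG8 family, read 11.07 and 10.90 against 9.20 and 8.38 with DZH_2 and 14.88 and 15.04 against 8.999 and 9.65 with Maraviroc. It rose by 2.19 and 5.64, with a difference of -3.44 ± 0.49 (adjusted p = 0.00692). For both genes the treated arrays lay above their solvents, and the Maraviroc arrays lay above the DZH_2 arrays. Its relative GABARAPL2 and BECN1, the scaffold of the autophagy lipid kinase, rose with Maraviroc by 2.69 and 1.64 and made up, with GABARAPL1, the 3 called of 27 autophagy genes, all lower with DZH_2 (background 1.18%). The list's median change with Maraviroc was 0.50 and, centred on the spikes, -0.52. KLHL21, an adaptor of the CUL3 ubiquitin ligase, read 9.70 and 9.33 against 7.97 and 8.23 with DZH_2 and 12.89 and 13.34 against 7.75 and 8.31 with Maraviroc, with a difference of -3.67 ± 0.45 (adjusted p = 0.00364). The differences of PLIN2, GABARAPL1 and KLHL21 were called without any 1 array. GABARAPL2 and BECN1 lost the call of the difference without any 1 of DZH_2 IC50 replicates 1 and 2, DMSO replicates 1 and 2 and ethanol replicates 1 and 2 (adjusted p up to 0.137). PLIN2 and KLHL21 lost the DZH_2 call without any 1 of DMSO replicates 1 and 2 (adjusted p up to 0.153). GABARAPL2 and BECN1 lost the Maraviroc call without any 1 of ethanol replicates 1 and 2 (adjusted p up to 0.205).

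IL11 (3589), a cytokine of the IL-6 family, read 11.80 and 10.25 with DZH_2, 10.29 and 9.73 in DMSO, 15.46 and 16.60 with Maraviroc and 10.77 and 9.22 in ethanol. Maraviroc raised it by 6.04 ± 0.60, and the DZH_2 replicates were 1.55 apart. The difference was -5.02 ± 0.87 (adjusted p = 0.0136). PMEPA1, a target and brake of TGF-beta signalling, read 7.53 and 6.72 with DZH_2, 6.95 and 6.89 in DMSO, 10.93 and 11.55 with Maraviroc and 6.53 and 7.43 in ethanol, with a difference of -4.05 ± 0.56 (adjusted p = 0.00594). Other TGF-beta genes did not follow one direction. SMAD7, which inhibits the receptor, rose by 2.12 with Maraviroc, while TGFBI, a matrix protein induced by TGF-beta, and SMAD6 fell by 2.96 and 2.78. With PMEPA1 these were the 4 called of 19 genes, 2 higher (background 2.82%) and 2 lower with DZH_2 (background 1.18%). MIR22HG, the host transcript of a microRNA, read 6.80 and 6.66 with DZH_2, 6.26 and 5.92 in DMSO, 9.23 and 10.87 with Maraviroc and 4.86 and 5.98 in ethanol (difference -3.99 ± 0.72, adjusted p = 0.0158). IL11, PMEPA1, SMAD7, TGFBI, SMAD6 and MIR22HG lost the call of the difference without at least 1 of DZH_2 IC50 replicates 1 and 2, DMSO replicates 1 and 2 and ethanol replicates 1 and 2 (adjusted p up to 0.196). SMAD7, TGFBI, SMAD6 and MIR22HG lost the Maraviroc call without at least 1 of ethanol replicates 1 and 2 (adjusted p up to 0.115).

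The protein folding response separated the compounds in few genes, all lower with DZH_2. DDIT3, the transcription factor CHOP of the integrated stress response, read 6.65 and 7.52 with DZH_2, 6.95 and 6.96 in DMSO, 9.41 and 10.13 with Maraviroc and 6.42 and 5.04 in ethanol. Maraviroc raised it by 4.04 ± 0.52, at least 4.01 with ethanol in the negative control range, and DZH_2 changed it by 0.13 ± 0.31 (adjusted p = 0.874). The difference of -3.91 ± 0.66 (adjusted p = 0.0126) was called. Of 23 genes of the unfolded protein response, 4 were called, all lower with DZH_2 (background 1.18%): SYVN1, the ubiquitin ligase that clears misfolded protein, the chaperones HSPA5 and DNAJB9, and MANF. With centring on the spikes 0 of the 23 were called, and the list's median change with Maraviroc was -0.51 in place of 0.52. DZH_2 called none of the 23, with 4 raised (background 4.61%) and 1 lowered (background 8.96%) by Maraviroc. The gene lowered was ATF6, by 2.12. HSPA5 was called in neither single comparison, at -0.61 with DZH_2 (adjusted p = 0.214) and 1.22 with Maraviroc (adjusted p = 0.0549), and its difference of -1.83 (adjusted p = 0.0338) comes from opposite small shifts. Leaving out either DZH_2 IC50 replicate, either DMSO replicate or ethanol replicate 1 brought these 4 to 0, and the count was 1 without ethanol replicate 2 and 6 and 8 without Maraviroc IC50 replicate 1 and 2. DDIT3, SYVN1, HSPA5, DNAJB9 and MANF lost the call of the difference without at least 1 of DZH_2 IC50 replicates 1 and 2, DMSO replicates 1 and 2 and ethanol replicates 1 and 2 (adjusted p up to 0.172). SYVN1, DNAJB9 and MANF lost the Maraviroc call without any 1 of ethanol replicates 1 and 2 (adjusted p up to 0.146).

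HSPA1A, the inducible HSP70 chaperone, read 13.66 and 11.52 with DZH_2 against 10.01 and 10.003 in DMSO, and 16.10 and 16.15 with Maraviroc against 9.78 and 10.59 in ethanol. Both raised it, by 2.58 and 5.94 (difference -3.36 ± 0.80, adjusted p = 0.0450), and the near-identical HSPA1B may share its signal. HSP90AA1, the inducible HSP90, rose by 2.33 with Maraviroc (difference -2.96, adjusted p = 0.0385). HSPB1, a small heat shock protein, went the other way and fell by 1.58 (difference 2.16, adjusted p = 0.0154). These were the 3 called of 18 heat shock genes (background 4.0%). DNAJB2, a J-domain co-chaperone, read 7.54 and 7.94 with DZH_2, 7.001 and 7.04 in DMSO, 10.94 and 11.98 with Maraviroc and 6.61 and 7.85 in ethanol (difference -3.52 ± 0.63, adjusted p = 0.0149). HSPA1A, HSP90AA1, HSPB1 and DNAJB2 lost the call of the difference without at least 1 of DZH_2 IC50 replicates 1 and 2, DMSO replicates 1 and 2 and ethanol replicates 1 and 2 (adjusted p up to 0.189). HSPA1A lost the DZH_2 call without any 1 of DMSO replicates 1 and 2 (adjusted p up to 0.122). HSP90AA1, HSPB1 and DNAJB2 lost the Maraviroc call without at least 1 of ethanol replicates 1 and 2 (adjusted p up to 0.217).

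CDKN1A, the cell cycle inhibitor p21, rose with both compounds, by 2.17 with DZH_2 and by 4.89 with Maraviroc. Its difference was -2.73 ± 0.66 (adjusted p = 0.0487). MDM2, another p53 target, was called in neither, at 0.01 with DZH_2 and 1.12 with Maraviroc. HK2, the hexokinase that traps glucose, rose by 3.84 with Maraviroc, with 0.92 for DZH_2 (adjusted p = 0.0741) and a difference of -2.92 ± 0.42 (adjusted p = 0.00715). It was the only difference called among 28 glycolysis and hypoxia genes, 3.57% of them and near the background of 4.0%. CASP8 and CASP6, caspases of cell death, fell by 2.31 and at least 0.77 with Maraviroc, with differences of 2.24 and, as measured, 2.38 (adjusted p = 0.0194 and 0.0182). With means raised to the negative control range the CASP6 difference was 0.84. BIRC5, survivin, was the last of the 3 called of 27 apoptosis regulators (background 4.0%) and is a mitotic gene as well. CDKN1A, HK2, CASP8, CASP6 and BIRC5 lost the call of the difference without at least 1 of DZH_2 IC50 replicates 1 and 2, DMSO replicates 1 and 2 and ethanol replicates 1 and 2 (adjusted p up to 0.192). CASP8, CASP6 and BIRC5 lost the Maraviroc call without at least 1 of ethanol replicates 1 and 2 (adjusted p up to 0.126).

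A smaller class of 20 separating genes was called for DZH_2 and not for Maraviroc, 15 higher and 5 lower, and lipid synthesis stood among them. The missing Maraviroc call does not mean no change. The median change of the 20 was 1.30 with DZH_2 and -0.61 with Maraviroc. IDI1 (3422), the isomerase that feeds the prenyl chain, read 12.84 and 13.50 with DZH_2 against 9.93 and 10.35 in DMSO, and 9.72 and 10.94 with Maraviroc against 9.97 and 11.49 in ethanol. DZH_2 raised it by 3.03 ± 0.30 (adjusted p = 0.00172), and with Maraviroc, whose arrays overlapped with ethanol, it changed by -0.41 ± 0.61 (adjusted p = 0.721). The difference was 3.44 ± 0.75 (adjusted p = 0.0315). ACSS2 (55902), which makes acetyl-CoA from acetate, read 11.77 and 12.46 against 9.35 and 9.32 with DZH_2 and 10.72 and 11.004 against 10.32 and 10.60 with Maraviroc. It rose by 2.78 with DZH_2 and changed by 0.40 with Maraviroc (adjusted p = 0.475), a difference of 2.38 ± 0.44 (adjusted p = 0.0164). ACAT2, which joins acetyl-CoA units at the head of the pathway, read 10.48 and 11.02 against 9.54 and 9.06 with DZH_2 and 8.18 and 8.86 against 10.08 and 9.68 with Maraviroc. DZH_2 raised it by 1.45, and with Maraviroc both arrays lay below ethanol, at -1.36 (adjusted p = 0.0545). The difference was 2.81 ± 0.49 (adjusted p = 0.0136). SLC25A1, the mitochondrial citrate carrier that supplies carbon for lipids, rose by 1.74 with DZH_2, with -0.50 for Maraviroc (difference 2.24, adjusted p = 0.0255). FADS2, a desaturase of polyunsaturated fatty acids, rose by 1.48 with DZH_2, with -0.55 for Maraviroc (difference 2.03, adjusted p = 0.0327). Solvent levels enter these differences. Ethanol and DMSO means were 10.46 and 9.33 for ACSS2, 9.89 and 8.78 for SLC25A1 and 16.88 and 15.72 for FADS2. IDI1 (10.73 and 10.14) and ACAT2 (9.88 and 9.30) had smaller gaps. The means with DZH_2 and Maraviroc were 12.11 and 10.86 for ACSS2, 10.52 and 9.39 for SLC25A1 and 17.20 and 16.32 for FADS2. IDI1, ACSS2, ACAT2, SLC25A1 and FADS2 lost the call of the difference without at least 1 of DZH_2 IC50 replicates 1 and 2, DMSO replicates 1 and 2 and ethanol replicates 1 and 2 (adjusted p up to 0.162). ACAT2, SLC25A1 and FADS2 lost the DZH_2 call without at least 1 of DMSO replicates 1 and 2 (adjusted p up to 0.146).

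HMGCS1 (3157), the synthase of HMG-CoA, was the single gene of the 76 that moved one way with both compounds and separated them with the larger change under DZH_2. It read 12.67 and 12.92 with DZH_2 against 8.09 and 7.97 in DMSO, and 10.43 and 10.99 with Maraviroc against 7.97 and 8.92 in ethanol. All treated arrays lay above all solvent arrays, and the DZH_2 arrays were the highest. It rose by 4.76 ± 0.25 and by 2.27 ± 0.42, with a difference of 2.49 ± 0.51 (adjusted p = 0.0239). HMGCS1 lost the call of the difference without any 1 of DZH_2 IC50 replicates 1 and 2, DMSO replicates 1 and 2 and ethanol replicate 2 (adjusted p up to 0.127). HMGCS1 lost the Maraviroc call without any 1 of ethanol replicates 1 and 2 (adjusted p up to 0.179). Its promoter, at chr5:43313413-43313662 (-) on GRCh38.p14, is shown for the 250 bases before the start, with CCAAT or its reverse complement in capitals, because NF-Y boxes are known neighbours of SREBP sites.
HMGCS1: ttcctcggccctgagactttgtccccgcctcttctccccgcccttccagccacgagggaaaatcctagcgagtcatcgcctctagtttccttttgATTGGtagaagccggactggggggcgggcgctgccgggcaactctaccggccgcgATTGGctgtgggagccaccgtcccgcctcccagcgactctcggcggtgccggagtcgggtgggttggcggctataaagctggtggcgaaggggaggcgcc
The 2 matches start 155 and 100 bases before the transcription start. CCAAT was present in 12 of 15 sterol synthesis promoters (80.0%), 6 of 12 fatty acid synthesis promoters and 36.4% of the 14250.

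Across the whole sterol pathway, DZH_2 raised 14 of 17 measured enzymes (background 1.61%) and Maraviroc 3 (background 4.61%): HMGCS1, DHCR7 and SC5D. The difference was called for 3, ACAT2, HMGCS1 and IDI1, all higher with DZH_2 (background 2.82%). The median change was 1.78 with DZH_2 and 0.10 with Maraviroc. Solvent levels enter these values: of the 17 enzymes, all but CYP51A1, PMVK and SC5D lay higher in ethanol than in DMSO. DHCR7 had means of 11.36 in ethanol and 10.29 in DMSO, and MVK 9.03 and 8.11. With no solvent subtracted, MVK read 9.81 with DZH_2 and 10.34 with Maraviroc, and SC5D 9.69 and 10.61. ACAT2, HMGCS1 and IDI1 lay higher with DZH_2 there too. MSMO1, a sterol demethylase, rose by 3.50 with DZH_2 and changed by -0.28 ± 0.71 with Maraviroc, whose arrays read 11.66 and 13.75; its difference of 3.77 missed the threshold (adjusted p = 0.0541). FDPS and MVD, which make farnesyl and isopentenyl pyrophosphate, rose by 1.73 and 2.02 with DZH_2 and changed by 0.10 and 0.40 with Maraviroc, and their differences missed the threshold too (adjusted p = 0.0641 and 0.0588). Of 13 fatty acid synthesis and desaturation genes, DZH_2 raised 7 (background 1.61%) and Maraviroc none (background 4.61%). The 3 called differences there, all higher with DZH_2 (background 2.82%), were ACSS2, FADS2 and ACACA, the acetyl-CoA carboxylase, which was called in neither single comparison (0.74 and -0.95, difference 1.69, adjusted p = 0.0355). FASN, the fatty acid synthase, rose by 2.79 with DZH_2 and changed by 1.27 with Maraviroc (adjusted p = 0.186), with no called difference (adjusted p = 0.248). ACACA lost the call of the difference without any 1 of DZH_2 IC50 replicates 1 and 2, DMSO replicates 1 and 2 and ethanol replicates 1 and 2 (adjusted p up to 0.161). SC5D, FDPS and MVD lost the DZH_2 call without at least 1 of DMSO replicates 1 and 2 (adjusted p up to 0.130). SC5D and DHCR7 lost the Maraviroc call without any 1 of ethanol replicates 1 and 2 (adjusted p up to 0.352).

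The differences of the lipid genes depended on single arrays. Without DMSO replicate 1, DMSO replicate 2 or DZH_2 IC50 replicate 2 none of the 17 sterol enzymes was called, without DZH_2 IC50 replicate 1 or ethanol replicate 2 only 1, without ethanol replicate 1 there were 2, and without Maraviroc IC50 replicate 1 or 2 there were 7 and 8. The median difference of the sterol list stayed between 1.10 and 1.63 without any 1 array.

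**Figure D3:**
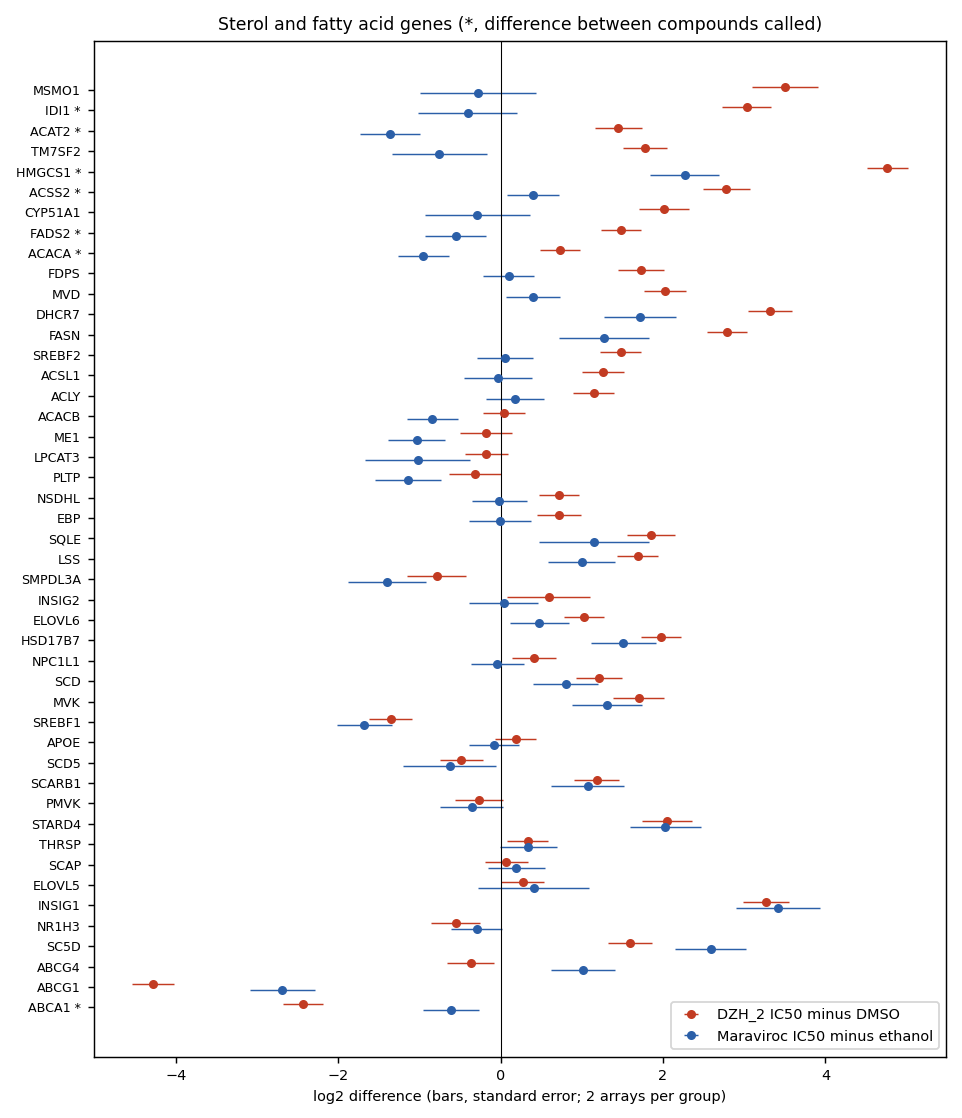
Log2 change of 46 genes of sterol synthesis, sterol uptake and regulation, LXR targets and fatty acid synthesis with each compound against its solvent (points, difference of 2-array means; bars, SE), ordered by the difference between compounds. MSMO1, IDI1 and ACAT2 at the top rose with DZH_2 and lay at or below 0 with Maraviroc, INSIG1 and STARD4 lay together, and ABCA1 and ABCG1 at the bottom fell further with DZH_2.

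The regulators of the pathway split. SREBF2, the sterol SREBP, rose by 1.48 with DZH_2, with 0.06 for Maraviroc (adjusted p = 0.934) and no called difference (adjusted p = 0.0961). INSIG1 (3638), which retains SREBP in the endoplasmic reticulum and is itself its target, read 12.41 and 12.58 against 8.92 and 9.52 with DZH_2 and 12.76 and 13.46 against 9.004 and 10.38 with Maraviroc. Treated arrays lay above solvents throughout. It rose by 3.27 ± 0.28 and 3.42 ± 0.51, with a difference of -0.15 (95% interval -1.55 to 1.25). STARD4, a sterol carrier, rose by 2.05 and 2.03, with an interval of -1.27 to 1.30. SREBF1, the SREBP of fatty acid synthesis, fell by 1.36 and 1.68, with an interval of -0.60 to 1.24. Within one pathway, INSIG1, STARD4 and SREBF1 were called for both compounds, while IDI1 and ACAT2 were raised by DZH_2 and separated the compounds. This was no split of regulators from enzymes. SREBF2 was called for DZH_2 only, and the enzymes DHCR7 and SC5D were called alike. SREBF2, STARD4 and SREBF1 lost the DZH_2 call without at least 1 of DMSO replicates 1 and 2 (adjusted p up to 0.124). INSIG1, STARD4 and SREBF1 lost the Maraviroc call without at least 1 of ethanol replicates 1 and 2 (adjusted p up to 0.244).

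The sterol efflux genes ABCA1 and ABCG1 fell with DZH_2. ABCA1 (19), the pump that loads cholesterol onto apolipoproteins, read 5.48 and 5.31 with DZH_2, 7.82 and 7.83 in DMSO, 5.52 and 5.31 with Maraviroc and 5.72 and 6.33 in ethanol. The treated arrays of the compounds were at one level, in the negative control range, and it was the solvents that differed. DZH_2 lowered it by 2.43 ± 0.25 as measured, a change of -1.85 with group means raised to that range, and with Maraviroc it changed by -0.61 ± 0.35 (adjusted p = 0.308), or 0.42 with means raised. The difference of -1.82 ± 0.41 (adjusted p = 0.0389) therefore rests on the DMSO and ethanol levels. With the compounds compared directly and no solvent subtracted, the difference was -0.02 (adjusted p = 0.990). After quantile normalization it missed the threshold (adjusted p = 0.0533). ABCG1, the partner pump for HDL, read 6.40 and 6.77 against 10.90 and 10.82 with DZH_2 and 6.90 and 7.57 against 10.30 and 9.55 with Maraviroc. It fell by 4.28 and 2.69, and the difference of -1.59 was not called (adjusted p = 0.107). ABCA1 lost the call of the difference without any 1 of DZH_2 IC50 replicates 1 and 2, DMSO replicates 1 and 2 and ethanol replicates 1 and 2 (adjusted p up to 0.166). ABCG1 lost the Maraviroc call without any 1 of ethanol replicates 1 and 2 (adjusted p up to 0.114).

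Other genes of the DZH_2 class had varied roles. CST7, a cystatin that inhibits cysteine proteases, read 9.83 and 10.49 with DZH_2, 8.62 and 8.34 in DMSO, 6.19 and 6.09 with Maraviroc and 7.57 and 7.06 in ethanol, and its difference was 2.85 ± 0.45 (adjusted p = 0.00998), with Maraviroc in the negative control range. CD99L2, a membrane protein of leukocyte passage, rose by 1.60 with DZH_2 (difference 2.21, adjusted p = 0.0256). DAAM2, a formin, rose by 1.92, but its levels in DMSO, ethanol and Maraviroc lay in the negative control range. With those means raised to the limit of the range its difference of 3.15 shrank to -0.06. The falls were led, after ABCA1, by USP47, a deubiquitinase, SLIRP, which stabilizes mitochondrial transcripts, the pseudogene ZNF767P and MAGOH, a core protein of the exon junction complex. They fell by 1.24, 1.19, 1.13 and 1.10 with DZH_2 and changed by 0.93, 1.08, 0.86 and 1.05 with Maraviroc. Their differences ran from -2.27 to -1.99 with adjusted p of 0.0118 to 0.0192. Solvent levels enter these values too. DMSO and ethanol means were 9.96 and 9.15 for USP47 and 13.27 and 12.72 for SLIRP. They were 7.62 and 6.79 for ZNF767P and 8.55 and 7.66 for MAGOH. Means with DZH_2 and Maraviroc were 8.72 and 10.08 for USP47 and 12.08 and 13.80 for SLIRP. For ZNF767P they were 6.49 and 7.65, and for MAGOH 7.45 and 8.71. CST7, CD99L2, DAAM2, USP47, SLIRP, ZNF767P and MAGOH lost the call of the difference without at least 1 of DZH_2 IC50 replicates 1 and 2, DMSO replicates 1 and 2 and ethanol replicates 1 and 2 (adjusted p up to 0.147). CST7, CD99L2, DAAM2, USP47, SLIRP, ZNF767P and MAGOH lost the DZH_2 call without at least 1 of DZH_2 IC50 replicates 1 and 2 and DMSO replicates 1 and 2 (adjusted p up to 0.289).

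The 4 genes that the compounds moved in opposite directions were SCIN, ARID5B and ZC3H12C, raised by DZH_2, and ZNF81, lowered by it. SCIN, the actin-severing protein scinderin, read 8.92 and 8.92 with DZH_2 against 7.68 and 7.42 in DMSO, and 5.12 and 5.45 with Maraviroc against 7.78 and 9.14 in ethanol. It changed by 1.37 ± 0.25 and -3.17 ± 0.48, and the difference of 4.54 ± 0.57 (adjusted p = 0.00393) kept its call without any 1 array. ARID5B, a chromatin factor, read 10.59 and 11.26 against 9.51 and 9.76 with DZH_2 and 5.54 and 7.12 against 9.27 and 10.12 with Maraviroc, with changes of 1.29 and -3.36. The Maraviroc levels of SCIN and ARID5B lay in the negative control range, which puts their falls at no less than 2.02 and 3.25. ZC3H12C, a zinc finger protein of the regnase family, changed by 1.21 and -1.73. ZNF81, a zinc finger protein, read 5.24 and 5.06 against 6.32 and 6.09 with DZH_2 and 7.03 and 7.56 against 4.30 and 5.40 with Maraviroc. Its DZH_2 and ethanol levels lay in the negative control range. With means raised to that range its change of -1.06 with DZH_2 became -0.23, and its difference of -3.51 became -1.77. The count of opposite genes was not stable. It was 0 without either DMSO replicate or without ethanol replicate 2, 1 without ethanol replicate 1, 9 without DZH_2 IC50 replicate 1, 22 and 23 without Maraviroc IC50 replicate 1 and 2, and 4 without DZH_2 IC50 replicate 2, of which 1 was among these 4. In 1 fit of 12 arrays it was 2, with 0 of them among these 4. Centred on the hybridization spikes 1 of these 4 was still called opposite, and with median centring 3. ARID5B, ZC3H12C and ZNF81 lost the call of the difference without at least 1 of DZH_2 IC50 replicate 2, DMSO replicates 1 and 2 and ethanol replicate 2 (adjusted p up to 0.0761). SCIN, ARID5B, ZC3H12C and ZNF81 lost the DZH_2 call without at least 1 of DZH_2 IC50 replicate 2 and DMSO replicates 1 and 2 (adjusted p up to 0.300). SCIN, ARID5B, ZC3H12C and ZNF81 lost the Maraviroc call without at least 1 of ethanol replicates 1 and 2 (adjusted p up to 0.242).

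Ranked by the smaller change of the 2 compounds, the alike rises began with LIPG, INSIG1, described above, CYP1B1 and PTGES. LIPG (9388), the endothelial lipase, read 7.91 and 8.23 with DZH_2 against 5.17 and 3.38 in DMSO, and 9.38 and 9.12 with Maraviroc against 5.48 and 6.47 in ethanol. The treated arrays lay above all solvent arrays. It rose by 3.79 ± 0.48 and 3.28 ± 0.41, with an interval of -1.13 to 2.16 for the difference as measured. DMSO lay in the negative control range, and with that mean raised the rise with DZH_2 was 2.10 and the difference turned from 0.52 to -1.18. CYP1B1, a cytochrome P450 that the aryl hydrocarbon receptor induces, read 9.31 and 9.02 against 5.99 and 6.09 with DZH_2 and 10.9996 and 10.43 against 6.93 and 6.32 with Maraviroc. It rose by 3.12 and 4.09, with an interval of -1.97 to 0.04. Its relative CYP1A1 rose by 3.09 with DZH_2, and with Maraviroc the arrays read 8.74 and 6.84 against 6.82 and 6.81 in ethanol, a change of 0.97 (adjusted p = 0.347), with no called difference (adjusted p = 0.131). Of 8 targets and partners of the receptor, DZH_2 raised 4 (background 1.61%) and Maraviroc 3 (background 4.61%), and no difference was called. LIPG, INSIG1 and PTGES lost the Maraviroc call without ethanol replicate 1 (adjusted p up to 0.0834).

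SQSTM1, the autophagy receptor p62, read 16.40 and 16.07 against 13.74 and 13.84 with DZH_2 and 17.90 and 17.12 against 13.50 and 13.83 with Maraviroc, with rises of 2.44 and 3.85. Its interval of -2.42 to -0.39 leaves out 0, but the adjusted p was 0.129. PTGES, which makes prostaglandin E2, rose by 2.50 and 3.76 (interval -2.63 to 0.11). GDF15, a stress cytokine, rose by 2.41 and 4.12 (interval -3.49 to 0.07). NPC1, which moves cholesterol out of lysosomes, rose by 2.29 and 3.31 (interval -2.27 to 0.22), as 1 of 4 genes called alike as rises among 27 of the lysosome (background 0.531%). DUSP10, a phosphatase of stress kinases, read 8.65 and 8.47 against 6.24 and 6.29 with DZH_2 and 9.20 and 8.20 against 6.09 and 6.56 with Maraviroc, with rises of 2.29 and 2.38 (interval -1.20 to 1.03). GDF15 and NPC1 lost the DZH_2 call without at least 1 of DMSO replicates 1 and 2 (adjusted p up to 0.127). SQSTM1, PTGES, GDF15, NPC1 and DUSP10 lost the Maraviroc call without at least 1 of ethanol replicates 1 and 2 (adjusted p up to 0.161).

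**Figure D4:**
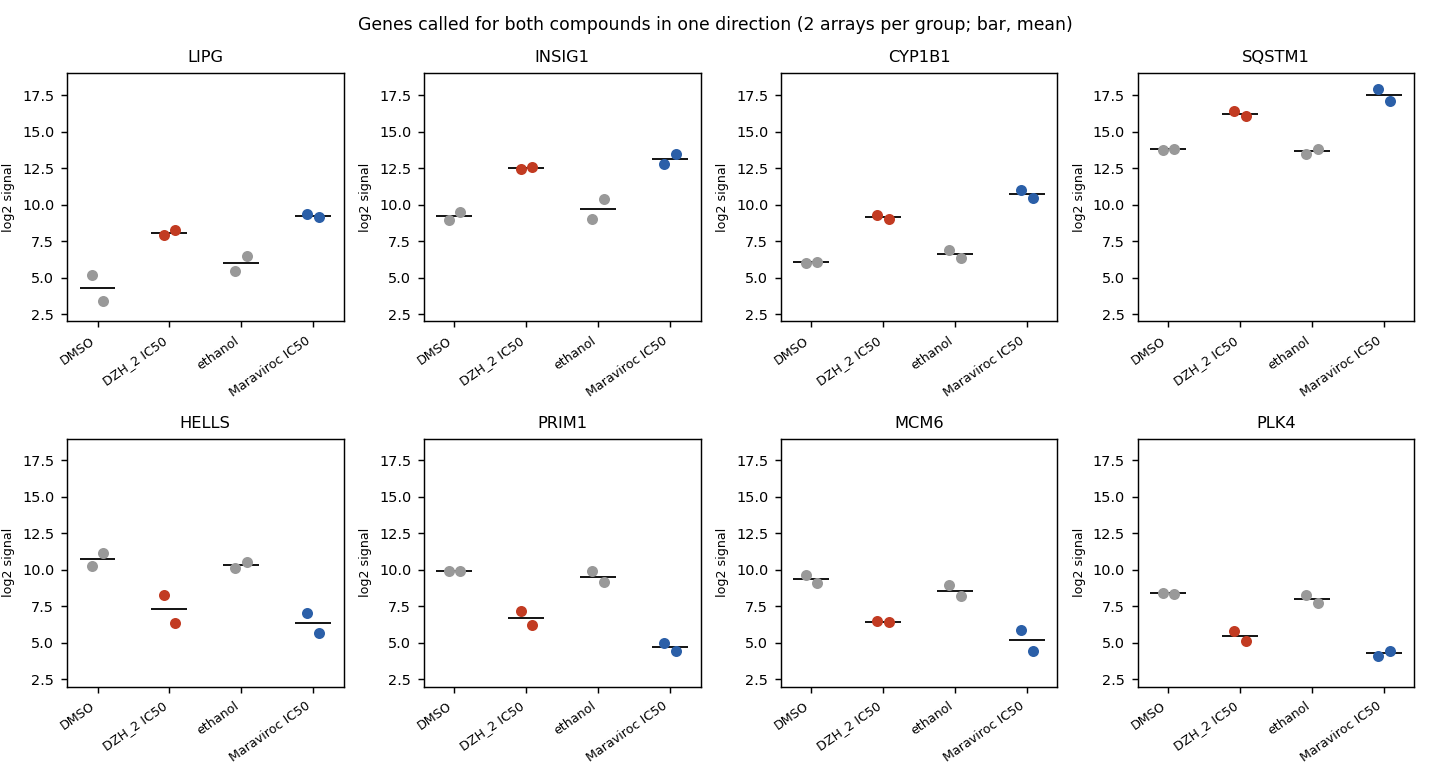
Log2 signal of 8 genes called for both compounds in one direction, on each array (points, 2 per group) with the group mean (bar). LIPG, INSIG1, CYP1B1 and SQSTM1 (top) are higher and HELLS, PRIM1, MCM6 and PLK4 (bottom) lower on all 4 treated arrays than in the solvents.

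Inflammatory and immediate early genes rose with both compounds in part. Of 24 NF-kB targets and interleukins, DZH_2 raised 8 (background 1.61%) and Maraviroc 10 (background 4.61%), and 6 were called alike as rises (background 0.531%): RELB, NFKBIA, NFKBIE, TRAF1, IL1B and CXCL8. CXCL8, the chemokine IL-8, read 8.46 and 9.08 against 7.61 and 7.43 with DZH_2 and 10.81 and 9.45 against 7.01 and 6.24 with Maraviroc, with rises of 1.25 and 3.51 (interval -3.67 to -0.84). IL6 went with DZH_2, rising by 2.35 from 7.30 and 6.84 to 9.43 and 9.41, with 0.10 for Maraviroc (adjusted p = 0.918), and its difference of 2.25 missed the threshold (adjusted p = 0.0604). TNFAIP3, a brake of NF-kB, was called in neither, at 1.12 and -1.71. Of 29 AP-1 and immediate early genes, Maraviroc raised 15 (background 4.61%) and DZH_2 7 (background 1.61%), and 6 rises were called alike (background 0.531%), among them JUND (1.69 and 3.30) and DUSP1 (1.70 and 4.47). EGR1 and IER5, called for the difference, rose with Maraviroc alone, by 2.26 and 2.51. Their differences of -2.41 and -2.32 (adjusted p = 0.0394 and 0.0185) were called. EGR1 and IER5 lost the call of the difference without at least 1 of DZH_2 IC50 replicates 1 and 2, DMSO replicates 1 and 2 and ethanol replicates 1 and 2 (adjusted p up to 0.194). RELB, NFKBIA, NFKBIE, TRAF1, IL1B, CXCL8, JUND and DUSP1 lost the DZH_2 call without at least 1 of DZH_2 IC50 replicates 1 and 2 and DMSO replicates 1 and 2 (adjusted p up to 0.276). RELB, NFKBIA, NFKBIE, TRAF1, CXCL8, JUND, DUSP1, EGR1 and IER5 lost the Maraviroc call without at least 1 of ethanol replicates 1 and 2 (adjusted p up to 0.215).

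Under the strict reading of likeness, that the 95% interval of the difference lies within 1 log2 unit of 0, 4 of the 347 genes qualified. NQO1 read 12.48 and 12.47 against 11.12 and 10.81 with DZH_2 and 12.49 and 12.76 against 11.22 and 11.06 with Maraviroc, rises of 1.51 and 1.49 with an interval of -0.83 to 0.88. BRIP1, a helicase of crosslink repair, read 6.45 and 6.40 against 7.58 and 7.51 and 5.85 and 5.77 against 6.91 and 7.18, falls of 1.12 and 1.23 with an interval of -0.70 to 0.94. ESCO2, the acetyltransferase of sister chromatid cohesion, read 5.38 and 5.28 against 7.42 and 7.47 and 4.85 and 4.92 against 7.24 and 6.92, falls of 2.11 and 2.20 with an interval of -0.74 to 0.91. Both treated groups of ESCO2, and BRIP1 with Maraviroc, lay in the negative control range. With means raised, the falls with Maraviroc were 0.64 and 0.60 and the differences -0.84 and -0.52, so that neither fall is shown to be alike. PRAC1 rose by 1.28 and 1.36, but lay in that range in all 4 groups. The median interval over all genes reached 1.01 to each side, so with 2 arrays a group few genes could meet this bar. NQO1, BRIP1 and PRAC1 lost the DZH_2 call without at least 1 of DZH_2 IC50 replicate 1 and DMSO replicates 1 and 2 (adjusted p up to 0.226). NQO1, BRIP1, ESCO2 and PRAC1 lost the Maraviroc call without any 1 of ethanol replicates 1 and 2 (adjusted p up to 0.341).

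Amino acid genes showed how little some pairs of changes can be separated. ASNS, the asparagine synthetase, read 10.26 and 13.26 with DZH_2, 15.20 and 14.96 in DMSO, 9.78 and 9.69 with Maraviroc and 14.76 and 11.93 in ethanol. It was called as a fall in both, -3.32 ± 0.72 and -3.61 ± 0.82, yet the replicates of DZH_2 and of ethanol were 3.01 and 2.83 apart and the interval ran from -2.68 to 3.26. Of 24 ATF4 and amino acid response genes, DZH_2 lowered 5 (background 3.01%) and raised none, while Maraviroc raised 6 (background 4.61%) and lowered 3 (background 8.96%). The differences of DDIT3 and SESN2 were called, both lower with DZH_2 (background 1.18%). ANKRD36C, an ankyrin repeat gene with near-identical relatives that may share its signal, read 10.19 and 10.14 against 14.02 and 13.37 with DZH_2 and 7.17 and 8.24 against 12.74 and 13.38 with Maraviroc. It fell by 3.53 and 5.36 (interval 0.57 to 3.08). SESN2 lost the call of the difference without any 1 of DZH_2 IC50 replicates 1 and 2, DMSO replicates 1 and 2 and ethanol replicates 1 and 2 (adjusted p up to 0.173). ASNS lost the DZH_2 call without any 1 of DMSO replicates 1 and 2 (adjusted p up to 0.137). ASNS and SESN2 lost the Maraviroc call without at least 1 of ethanol replicates 1 and 2 (adjusted p up to 0.193).

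The remaining lists held few calls for the difference, against a background of 4.0%. Collagen and matrix genes, matrix metalloproteases and their inhibitors, interferon-induced genes, lysosomal genes and markers of blood and stromal cells had none among 21, 23, 30, 27 and 15 measured. Respiratory chain genes had 2 of 27, COX6C and UQCRH, with rises of 2.21 and 1.66 under Maraviroc. The proteasome had PSMA5 of 27, with a rise of 2.20, and the ribosomal proteins had RPS15 of 19, with a fall of 2.22. YAP and TEAD targets had PTPN14 and AMOTL1 of 17, with falls of 2.72 and 2.28. COX6C, UQCRH, PSMA5, RPS15, PTPN14 and AMOTL1 lost the call of the difference without at least 1 of DZH_2 IC50 replicates 1 and 2, DMSO replicates 1 and 2 and ethanol replicates 1 and 2 (adjusted p up to 0.151). COX6C, UQCRH, PSMA5, RPS15, PTPN14 and AMOTL1 lost the Maraviroc call without any 1 of ethanol replicates 1 and 2 (adjusted p up to 0.217).

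**Figure D5:**
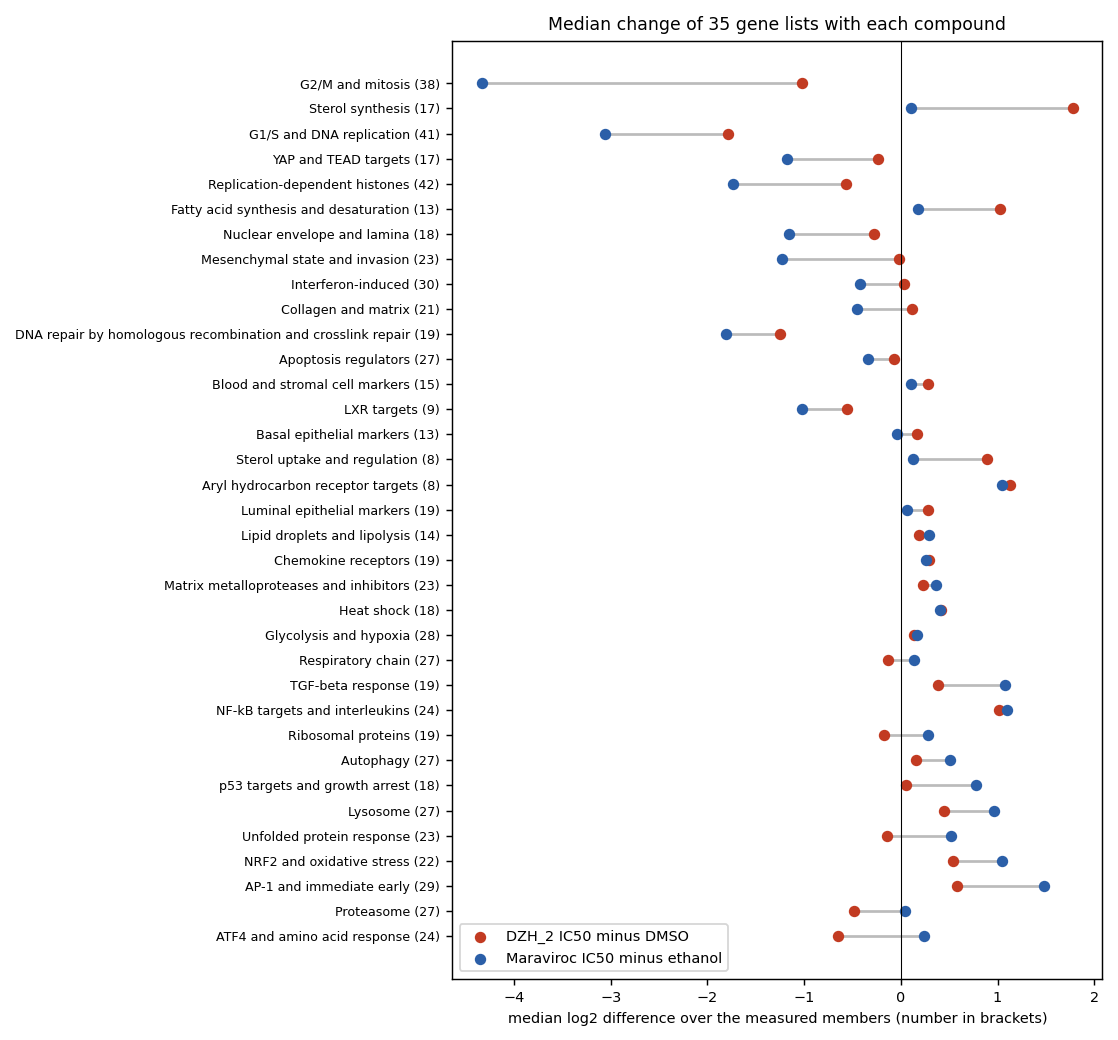
Median log2 change over the measured members of 35 gene lists (member number in brackets) with DZH_2 IC50 against DMSO (red) and Maraviroc IC50 against ethanol (blue), ordered by the median difference. G2/M and mitosis shows the widest gap, -1.02 against -4.33, sterol synthesis lies at 1.78 against 0.10, and NF-kB targets lie together at 1.01 and 1.10.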

How the data were processed

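The deposited table holds 1 log2 signal per probe set and array, with normalization not given in the sources used here. Per the labels' protocols, RNA was labelled with the WT PLUS kit for Affymetrix arrays. Of 24351 probe sets, 17709 have 1 gene symbol, 2903 are controls and 3739 have no gene in the platform annotation. For 20 genes with several probe sets the brightest was kept, leaving 17687 genes. The number of arrays, 2 a group, limits the precision.

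Linear models (limma 3.58.1, R 4.3.3) with empirical Bayes gave the difference of differences on 8 arrays with 4 residual degrees of freedom, and each compound against its solvent on its own 4 arrays with 2. P-values were adjusted over all 17687 genes by Benjamini-Hochberg and called under 0.05. Genes named are the 10 largest called differences each way, the 8 largest alike changes each way and the opposite genes. Up to 6 separating genes a direction called for DZH_2 and not for Maraviroc were named, and up to 6 members of each list by smallest p. Others were named after their values were seen. The members and lists were chosen with earlier results of these data known. Sequences are from RefSeq. The fit of the difference of differences was run on simulated data, and the single-compound fits were not. Alternatives are given in the closing section.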

Additional observations from a re-analysis of the deposited data

Results flagged for a closer look

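The 2 values here concern control probe sets, which the gene comparisons as reported do not use. The spikes enter the centring given below, and the negative controls set the range used for the raised means. The 4 hybridization spikes, added to every hybridization, lay 1.03 log2 units higher with Maraviroc IC50 than in ethanol. The median of the 612 negative control probe sets lay 0.44 higher with Maraviroc IC50 than in ethanol. Their part in the gene results was not tested beyond the centring on the spikes given below.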

How the results depend on the processing

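Of the 34 genes named by rule whose difference was called, 33 kept its sign under the alternatives here, and DAAM2 turned to -0.0575 with group means raised to the limit of the negative control range, a bound with no test chosen after seeing the data. Of the 16 whose difference was not called, 8 turned sign under some alternative: LIPG, PRIM1, PLK4 and MCM6 with means raised, LIPG with the compounds compared directly, INSIG1 and DUSP10 centred on the spikes, and LIPG, INSIG1, DUSP10, HELLS, ASNS and MCM6 without 1 array. Depth is limited by 2 arrays a group and by signal over the negative controls. Separating genes numbered 707 as reported, 1091 in 1 fit of 12 arrays (690 shared), 62 with a minimum log2 difference of 1, 1145 centred on the hybridization spikes, 1320 with the compounds compared directly without solvents, and 59 to 1901 without 1 array. Alike genes numbered 347, against 185, 8, 1991 and 45 to 583 under 12 arrays, the minimum, the spikes and leaving out 1 array. Opposite genes numbered 4, against 2, 0, 18 and 0 to 23, and 7 with only genes above the negative controls. DZH_2 calls numbered 817, against 277, 23, 3125 and 77 to 1502. Maraviroc calls numbered 2399, against 4778, 447, 7677 and 149 to 5387. The minimum tests a stricter question and leaving out an array leaves fewer samples; otherwise the cause was not tested. Deviations of same-numbered arrays correlated at -0.08 to 0.12 between groups, so the numbers were not taken as pairs. With the replicate number as a block, the counts were 794 separating, 530 alike, 14 opposite, 953 for DZH_2 and 3934 for Maraviroc.

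Scaling moved the split of directions. Centring on the spikes, chosen after seeing the data, put the median of all genes at -0.53 for DZH_2, -0.92 for Maraviroc and 0.44 for the difference, in place of 0.04, 0.11 and -0.03, and gave 1050 separating genes higher and 95 lower with DZH_2, 28 alike rises against 1963 falls, 91 rises against 3034 falls for DZH_2 and 245 against 7432 for Maraviroc. It left 0 separating genes in the unfolded protein response list. Centring each array on the median of its genes put it at 0.28 for Maraviroc and -0.15 for the difference, and gave 447 higher and 302 lower, and Maraviroc 1220 rises and 1344 falls. Quantile normalization gave Maraviroc 1030 rises and 1258 falls, and 131 alike rises and 197 falls.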

Other observations

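With Maraviroc, the 17 sterol enzymes measured differed from each other in how the IC20, the lower dose, compared with the IC50: 10 lay over 0.25 log2 units lower at the IC50, 5 lay over 0.25 higher and 2, DHCR7 and SQLE, lay within 0.25. These arrays share the ethanol and DMSO arrays with the comparisons above and were not tested. ACAT2 lay 1.52 log2 units above ethanol with Maraviroc IC20, on arrays of 11.21 and 11.60, against -1.36 at the IC50. IDI1 lay 1.29 above ethanol at the IC20 against -0.41 at the IC50, and MSMO1 1.68 against -0.28. The other way, SC5D lay 1.76 higher at the IC50 than at the IC20, MVK 0.85 and HSD17B7 0.79. HMGCS1, which stayed high at both doses, lay 1.89 and 2.27 above ethanol. INSIG1 lay 1.29 above at the IC20 and 3.42 at the IC50. With DZH_2 the doses gave closer values, between -0.19 and 0.38 apart over the 17: IDI1 lay 2.76 above DMSO at the IC20 and 3.03 at the IC50, and HMGCS1 4.47 and 4.76.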
